A study of Homo sapiens with 21 samples.

Results

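The vacuolar-type ATPase (V-ATPase) is the rotary pump that acidifies lysosomes, endosomes and the Golgi, and cathepsins are proteases, most of them lysosomal, that work best at the acid pH it makes. Genes of both families were picked by symbol alone from an expression table of H1975, an established human lung adenocarcinoma line with mutations in the epidermal growth factor receptor gene EGFR. The symbols gave 37 genes of the 34021 in the table, 23 for V-ATPase subunits with their accessory proteins and 14 for cathepsins. The 9 RNA-seq libraries fell into 3 groups of 3, all cultured for 8 days. OC cells received osimertinib at 500 nM, which binds mutant EGFR covalently, and overexpressed cIGF1R, a circular RNA of the insulin-like growth factor 1 receptor gene. OL+EV cells received 500 nM osimertinib and 500 nM linsitinib, an inhibitor of the IGF1R and insulin receptor kinases, and DMSO+EV cells received vehicle. The labels do not spell out EV, and the OC label does not mention it. OC and OL+EV differ in linsitinib and in the circular RNA at once, and the effects of these cannot be told apart, since osimertinib with EV and nothing else was not analysed here. Likewise, OC differs from DMSO+EV in osimertinib and the circular RNA, and OL+EV differs from it in both drugs, so these effects cannot be told apart either. Values are read as FPKM, a fragment density scaled to gene length and library size, since the file names no unit. Without the read depth, values carry no counting interval.

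IGF1R, on chromosome 15 from 98648539 to 98964530 (GRCh38), was listed at 81.4, 82.3 and 100.9 FPKM in OC, at 4.41, 3.57 and 3.73 in OL+EV and at 3.76, 4.41 and 4.24 in DMSO+EV, so it was high in the group labelled as overexpressing its circular RNA. Transcripts of mitochondrial DNA held 6.08% to 7.28% of the summed FPKM in OC, 20.4% to 25.6% in OL+EV and 20.3% to 30.4% in DMSO+EV, where replicate 1 was highest. As FPKM is scaled to library size, this can move the level of every other gene, so libraries were also rescaled to equal totals without mitochondrial genes. That rescaling shifted log2 fold changes by a median of 0.0381 in OC against DMSO+EV, 0.0254 in OL+EV against DMSO+EV and 0.0132 in OC against OL+EV. DMSO+EV replicate 2 stood apart with 443 FPKM of the small noncoding RNA RN7SL1, against 46.4 and 36.1 in the other DMSO+EV libraries. The 6 epithelial markers summed to 12440 to 15200 FPKM in OC, 13230 to 14400 in OL+EV and 11200 to 12460 in DMSO+EV, and they did not all stay level. CDH1, the adhesion protein E-cadherin, averaged 120.6 FPKM in OC, 48.9 in OL+EV and 41.9 in DMSO+EV, a rise of 1.52 on the log2 scale in OC against DMSO+EV (limma adjusted p = 8.74e-07). In that comparison KRT19 and KRT8 also rose (0.53 and 0.42, limma adjusted p = 0.00247 and 0.0128) and KRT7 gave -0.46 (limma adjusted p = 0.00421), while with quantile normalization 4 of the 6 were higher and 0 lower. KRT18 and EPCAM gave no call, with EPCAM at 92.9 to 112 FPKM in OC, 86.0 to 99.1 in OL+EV and 92.1 to 105 in DMSO+EV. Nothing in the labels ties the 3 libraries of a group to different cultures. A p-value here therefore measures the spread among libraries, possibly a technical one. In bulk RNA, fewer cells that carry a transcript and less of it per cell cannot be told apart.

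The pump has a V1 sector in the cytosol, which hydrolyses ATP, and a V0 sector in the membrane, which carries protons. In V1, subunits A and B form the catalytic ring, D and F the central shaft, E and G the side stalks, C a brace that is released when the pump disassembles, and H a regulator. In V0, the c subunits form the rotor ring, a holds the proton half-channels, d links the ring to the shaft and e is a small membrane subunit. Several subunits exist as isoforms: B1 and C2 are known from epithelia such as kidney, where B1 serves acid secretion, while B2 and C1 are widely expressed. Cathepsins divide by catalytic residue into cysteine proteases (B, C, F, H, K, L, O, S, V, W and Z), aspartic proteases (D and E) and a serine carboxypeptidase (A). Most are made as proenzymes and mature in acid compartments.

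The proteases moved further than the pump. The 14 cathepsin genes summed to 1274, 1300 and 1438 FPKM in OC, to 774, 767 and 694 in OL+EV and to 470, 556 and 555 in DMSO+EV. No group overlapped another. The 23 pump genes summed to 822, 827 and 968 FPKM in OC, to 839, 850 and 767 in OL+EV and to 667, 733 and 736 in DMSO+EV, so both drug groups lay above vehicle while OC and OL+EV overlapped. The cathepsin sum divided by the pump sum, a ratio that no single scale factor per library can move, was 1.54 ± 0.0454 in OC, 0.910 ± 0.0112 in OL+EV and 0.739 ± 0.0295 in DMSO+EV (SD, n = 3). CTSD held much of the sum, 34.7% of it in OC, 33.1% in OL+EV and 30.6% in DMSO+EV, and without it the other 13 cathepsins still summed to 874 ± 64.7, 498 ± 21.6 and 365 ± 24.6 FPKM in the same order of groups.

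**Figure D1:**
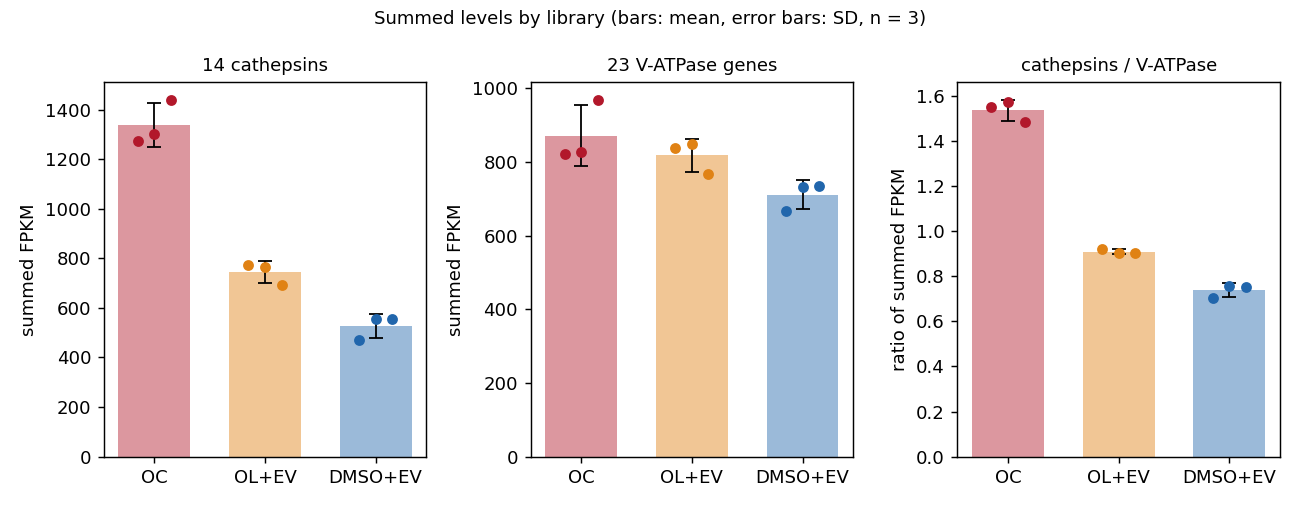
Summed FPKM of the 14 cathepsins, summed FPKM of the 23 V-ATPase genes, and the ratio of these sums in each library (points), with the mean (bars) and SD (error bars, n = 3) of OC, OL+EV and DMSO+EV. The ratio lies between 1.49 and 1.57 in OC, between 0.902 and 0.923 in OL+EV and between 0.705 and 0.758 in DMSO+EV.

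Levels were tested as log2(FPKM + 1) with limma over the 13775 genes with at least 1 FPKM in at least 3 libraries, and a gene is called here at a Benjamini-Hochberg adjusted p under 0.05. Of the members, 32 entered the test, 20 for the pump and 12 cathepsins. CTSO reached 1 FPKM in 3 OC, 1 OL+EV and 0 DMSO+EV libraries, so it passed through OC, where it is high. ATP6V1B1 reached it in 3, 3 and 1, and so passed through the drug-treated groups where it is high. ATP6V1E2 reached it in 0 OC, 2 OL+EV and 3 DMSO+EV libraries, and so passed through the groups where it is higher. The filter favoured the direction of these genes, and the counts below are descriptions. In OC against DMSO+EV, 9 of 12 cathepsins rose and 1 fell, where 33.1% of all genes tested rose and 35.8% fell. Of the 20 pump genes 8 rose and 3 fell. The count that fell was 0 without OC replicate 2 and 1 without DMSO+EV replicate 2. The median log2 fold change was 1.38 for the cathepsins and 0.18 for the pump, beside -0.03 for all genes tested. All 9 cathepsin rises exceeded 1 on the log2 scale, against 2 of the pump. In OL+EV against DMSO+EV, 7 cathepsins rose and 1 fell, where 29% of all genes rose and 23.5% fell. The pump had 9 rises and 0 falls in that comparison, with medians of 0.48 for cathepsins, 0.22 for the pump and 0.05 for all genes. That pump count is not firm: it was 4 under median-of-ratios rescaling, 5 without DMSO+EV replicate 1, without DMSO+EV replicate 2 or without OL+EV replicate 2, and 4 without OL+EV replicate 1. Over all genes, median-of-ratios rescaling gave 3274 higher in this comparison, against 3999 without it. OC was also compared with OL+EV directly: 7 cathepsins were higher and 1 lower, where 25.9% of all genes were higher and 34.8% lower, and 6 pump genes were higher and 4 lower. Medians there were 0.95, 0.04 and -0.09 for cathepsins, pump and all genes. Median-of-ratios rescaling shifts all genes by 0.12 in this comparison, turns the split of all calls to 4463 higher and 3669 lower from 3568 and 4788, and gives 10 higher and 3 lower pump genes. With equal totals without mitochondrial genes, the counts higher and lower were 10 and 1 cathepsins and 10 and 3 pump genes in OC against DMSO+EV, 8 and 1 and 11 and 0 in OL+EV against DMSO+EV, and 8 and 1 and 8 and 4 in OC against OL+EV. Over all genes, the counts higher and lower with these totals were 4713 and 4643, 4137 and 3105, and 3601 and 4579 in the same order. OC and OL+EV were set against the same vehicle libraries.

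**Figure D2:**
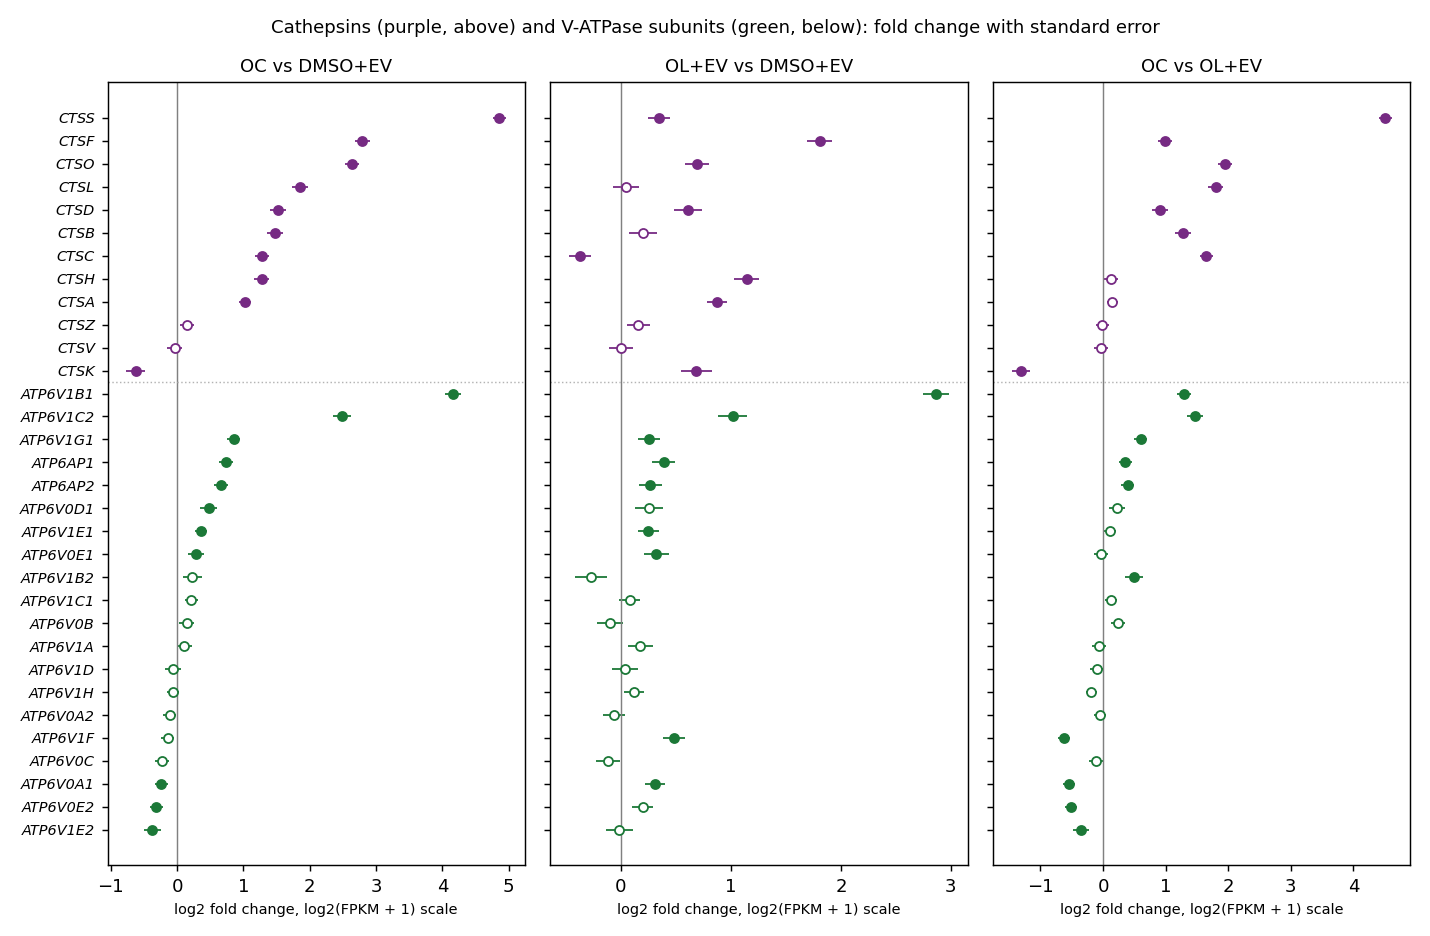
Log2 fold change (points) with its standard error (bars) on the log2(FPKM + 1) scale for 12 cathepsins (purple, above) and 20 V-ATPase genes (green, below) in OC against DMSO+EV, OL+EV against DMSO+EV, and OC against OL+EV, each with 3 libraries a group. Filled points have a limma adjusted p under 0.05. CTSS at 4.86 and ATP6V1B1 at 4.16 lie farthest to the right in OC against DMSO+EV.

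CTSS encodes cathepsin S, a cysteine protease that trims the invariant chain of MHC class II molecules and stays active at neutral pH. It stood at 60.4, 62.1 and 72.6 FPKM in OC, at 1.77, 1.94 and 1.96 in OL+EV and at 1.13, 1.28 and 1.42 in DMSO+EV. Every OC library was far above the others, and the OL+EV libraries lay just above vehicle. The OC mean was 50.9 times that of DMSO+EV (log2 fold change 4.86, SE 0.10, limma adjusted p = 1.22e-13) and 34.4 times that of OL+EV (4.51, SE 0.10, limma adjusted p = 3.18e-13). With pseudocounts of 0.1 and 5 the first of these log2 values was 5.56 and 3.48. OL+EV was higher than DMSO+EV by 0.35 (SE 0.10, limma adjusted p = 0.00973), a call that ended with a pseudocount of 5 (limma adjusted p = 0.131). Cathepsin S thereby made up 4.86% of the cathepsin sum in OC, against 0.255% in OL+EV and 0.242% in DMSO+EV.

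CTSK, which encodes the collagen-degrading cathepsin K of osteoclasts, is the neighbour of CTSS on chromosome 1 (CTSS from 150730188 to 150765778, CTSK from 150796208 to 150808260, GRCh38), with 30429 bases between them. It ran the other way: 0.972, 1.28 and 1.58 FPKM in OC, 4.49, 4.39 and 4.94 in OL+EV, and 3.36, 2.00 and 2.23 in DMSO+EV. OC was the lowest group and OL+EV the highest, with no overlap. The log2 fold change was -0.62 in OC against DMSO+EV (SE 0.14, limma adjusted p = 0.00149), 0.69 in OL+EV against DMSO+EV (limma adjusted p = 0.00114) and -1.31 in OC against OL+EV (limma adjusted p = 4.61e-06). CTSK was the cathepsin called lower in OC in both of its comparisons, at levels near the filter, and it was not tested where 5 FPKM was required.

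CTSO and CTSF, both cysteine proteases, formed a stepped pattern, lowest in vehicle and highest in OC. CTSO, a poorly studied lysosomal enzyme, was at 6.69, 6.76 and 6.01 FPKM in OC, 1.22, 0.750 and 0.890 in OL+EV and 0.116, 0.200 and 0.299 in DMSO+EV. The groups stayed apart, though vehicle levels were below the filter. CTSO entered the test through OC, so the filter favoured a higher value there and its p-values are descriptions. Its log2 fold change was 2.64 in OC and 0.69 in OL+EV against DMSO+EV (limma adjusted p = 1.76e-10 and 0.000172), and 1.94 in OC against OL+EV. With a pseudocount of 0.1 these were 4.47, 1.81 and 2.67, and with 5 they were 1.14, 0.19 and 0.95. CTSF, whose product also acts on the invariant chain and whose loss causes a neuronal ceroid lipofuscinosis, was at 34.3, 34.2 and 41.2 FPKM in OC, 18.8, 17.2 and 17.8 in OL+EV and 3.59, 5.05 and 4.67 in DMSO+EV. Here all 3 groups were likewise separate. CTSF rose by 2.79 in OC (SE 0.11, limma adjusted p = 1.23e-10) and by 1.81 in OL+EV (SE 0.11, limma adjusted p = 2.98e-08) against DMSO+EV, and OC exceeded OL+EV by 0.98 (limma adjusted p = 8.87e-06).

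CTSL, CTSB and CTSC separated OC from the other groups. Cathepsin L, a broad endopeptidase that also processes other cathepsins, had transcript levels of 56.7, 60.1 and 79.5 FPKM in OC, 18.7, 18.6 and 16.5 in OL+EV and 16.6, 16.7 and 18.6 in DMSO+EV. OL+EV overlapped vehicle, and OC lay above both. It rose by 1.85 against DMSO+EV (SE 0.12, limma adjusted p = 1.46e-08) and by 1.80 against OL+EV (limma adjusted p = 4.54e-08). CTSB, the gene of an abundant endopeptidase and dipeptidyl carboxypeptidase, held 103, 104 and 106 FPKM in OC, 45.2, 45.9 and 37.2 in OL+EV and 29.7, 40.5 and 41.5 in DMSO+EV. The OC values were again the highest by a wide gap, at 1.48 on the log2 scale above DMSO+EV (limma adjusted p = 2.41e-07) and 1.27 above OL+EV (limma adjusted p = 2.30e-06). OL+EV did not pass against DMSO+EV for either gene (limma adjusted p = 0.757 for CTSL and 0.194 for CTSB).

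CTSC, encoding the dipeptidyl peptidase that activates granule serine proteases of leukocytes, was higher in OC and lower in OL+EV than in vehicle. It stood at 225, 227 and 236 FPKM in OC, at 76.1, 71.7 and 69.5 in OL+EV and at 84.0, 95.1 and 103.5 in DMSO+EV. Each OL+EV library was below each vehicle library, and each OC library above. The log2 fold change was 1.28 in OC (SE 0.10, limma adjusted p = 8.24e-08) and -0.37 in OL+EV (SE 0.10, limma adjusted p = 0.00670) against DMSO+EV, and 1.65 in OC against OL+EV (limma adjusted p = 1.43e-08).

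CTSA, CTSH and CTSD rose in both drug groups. CTSA encodes protective protein, the serine carboxypeptidase that stabilises lysosomal neuraminidase and beta-galactosidase, and was at 159, 160.0 and 178 FPKM in OC, 149.6, 149.3 and 148.9 in OL+EV and 76.4, 82.7 and 84.3 in DMSO+EV. CTSH, an aminopeptidase that matures surfactant protein B in alveolar cells, was at 93.9, 106 and 124.6 FPKM in OC, 102, 104 and 88.9 in OL+EV and 43.0, 41.8 and 46.9 in DMSO+EV. The drug groups lay above vehicle in every library for both genes, and for CTSH they overlapped each other. In OC against DMSO+EV the log2 fold changes were 1.02 and 1.27 (limma adjusted p = 3.63e-07 for each), and in OL+EV 0.87 and 1.14 (limma adjusted p = 3.93e-06 and 2.48e-06). OC did not pass against OL+EV, at 0.15 for CTSA (SE 0.09, limma adjusted p = 0.176) and 0.13 for CTSH (SE 0.11, limma adjusted p = 0.341), although CTSA did under median-of-ratios rescaling (limma adjusted p = 0.0207) and with equal totals without mitochondrial genes (limma adjusted p = 0.0440).

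CTSD, the gene of the main lysosomal aspartic protease, was the most abundant cathepsin transcript in every group, at 447, 454 and 490 FPKM in OC, 265, 254 and 221 in OL+EV and 133, 180.0 and 172 in DMSO+EV. No value of one group fell within another. It rose by 1.52 in OC (SE 0.13, limma adjusted p = 1.63e-07) and by 0.61 in OL+EV (SE 0.13, limma adjusted p = 0.00114) against DMSO+EV, with OC above OL+EV by 0.91 (limma adjusted p = 4.04e-05).

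The remaining cathepsins gave no call. CTSZ, a carboxypeptidase, ran from 80.6 to 96.4 FPKM in OC, from 81.9 to 93.7 in OL+EV and from 73.9 to 85.4 in DMSO+EV, with limma adjusted p of 0.225 for OC and 0.218 for OL+EV against DMSO+EV. It passed in both with equal totals without mitochondrial genes (limma adjusted p = 0.0335 and 0.0454), and in OL+EV with quantile normalization (0.0106). CTSV, a close paralogue of CTSL known from thymus and testis, ran from 4.15 to 5.72 FPKM in OC, 4.63 to 5.17 in OL+EV and up to 5.09 in DMSO+EV, with log2 differences within 0.04 of 0 in all 3 comparisons. CTSE, an aspartic protease of gastric and immune cells, and CTSW, known from cytotoxic lymphocytes, reached 0.0921 and 0.114 FPKM at most and were not tested.

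**Figure D3:**
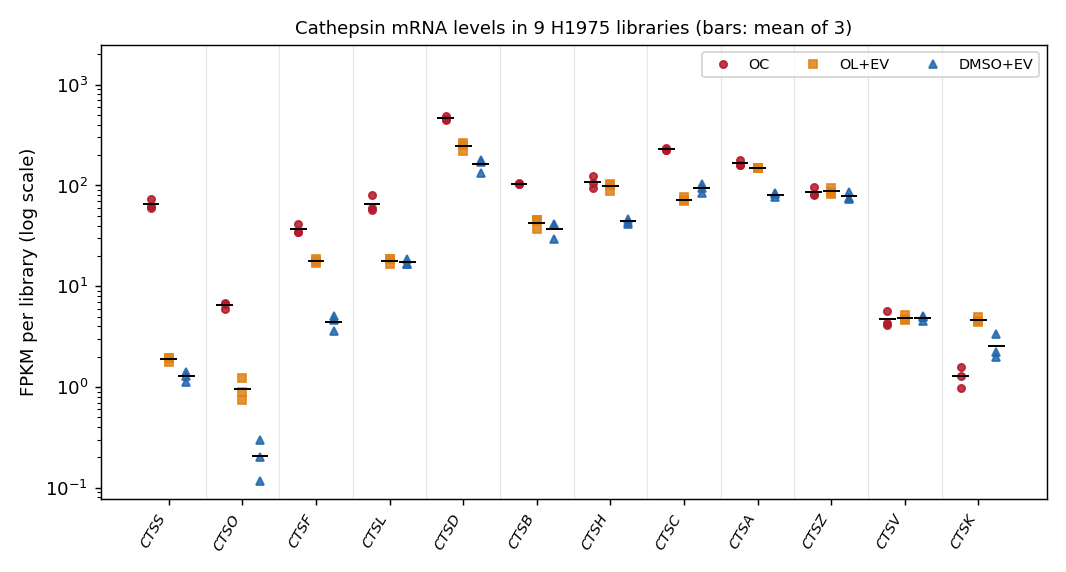
FPKM of 12 cathepsin genes in each of 9 libraries on a log axis, with OC, OL+EV and DMSO+EV from left to right for each gene, ordered by the ratio of the OC and DMSO+EV means; black bars are means of 3. CTSS reaches 60.4 to 72.6 FPKM in OC and stays at 1.96 or below elsewhere, while CTSK, at the right, is lowest in OC.

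Among pump genes, the large changes were those of the isoforms B1 and C2. ATP6V1B1, on chromosome 2 from 70935900 to 70965431, was at 30.1, 29.8 and 35.7 FPKM in OC, 13.2, 12.5 and 11.5 in OL+EV and 1.03, 0.958 and 0.559 in DMSO+EV. The groups were far apart, with the OC mean 37.5 times and the OL+EV mean 14.6 times that of DMSO+EV. The log2 fold change was 4.16 in OC (SE 0.12, limma adjusted p = 3.19e-12), 2.86 in OL+EV (SE 0.12, limma adjusted p = 3.78e-10) and 1.29 in OC against OL+EV (limma adjusted p = 8.77e-07). Pseudocounts of 0.1 and 5 gave 5.11 and 2.65 in OC and 3.75 and 1.57 in OL+EV against DMSO+EV. Its antisense neighbour ATP6V1B1-AS1 was listed at up to 0.527 FPKM in OC, 0.387 in OL+EV and 0.125 in DMSO+EV, and as the use of strand is not stated, reads of the pair cannot be told apart where they overlap.

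ATP6V1B2, the widely expressed B isoform, was at 10.4, 8.62 and 9.88 FPKM in OC, 6.75, 6.22 and 6.57 in OL+EV and 6.22, 7.73 and 10.8 in DMSO+EV. Neither drug group passed against vehicle (limma adjusted p = 0.175 and 0.138), and OC passed against OL+EV by 0.50 (limma adjusted p = 0.00948), a call that ended with no filter on low values (limma adjusted p = 0.0630). OL+EV passed as lower than DMSO+EV without DMSO+EV replicate 1 (limma adjusted p = 0.0143), and OC as higher without DMSO+EV replicate 3 (limma adjusted p = 0.00617). The B1 transcript thus held 76.7% ± 2.17 of the summed B transcripts in OC and 65.5% ± 1.60 in OL+EV, against 10.1% ± 4.74 in DMSO+EV (SD, n = 3). B1 was the minor isoform in all vehicle libraries and the major one in all 6 others.

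ATP6V1C2, also on chromosome 2 (from 10720943 to 10785110), was at 24.6, 24.4 and 24.8 FPKM in OC, 7.77, 8.00 and 9.01 in OL+EV and 4.88, 2.91 and 3.15 in DMSO+EV. The 3 groups did not overlap. It rose by 2.49 in OC (SE 0.13, limma adjusted p = 1.95e-09) and by 1.02 in OL+EV (SE 0.13, limma adjusted p = 2.87e-05) against DMSO+EV, and OC exceeded OL+EV by 1.47 (limma adjusted p = 9.19e-07). Its paralogue ATP6V1C1 stayed between 9.07 and 12.2 FPKM over all 9 libraries and gave no call, with 0.21 in OC against DMSO+EV (limma adjusted p = 0.0724). That value passed under median-of-ratios rescaling (limma adjusted p = 0.0298), with equal totals without mitochondrial genes (0.0381) and without DMSO+EV replicate 3 (0.00911). C2 held 67.8% ± 0.742 of the C transcripts in OC, 43.8% ± 1.65 in OL+EV and 26.7% ± 7.29 in DMSO+EV, so it was the major C isoform in OC alone among these groups.

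**Figure D4:**
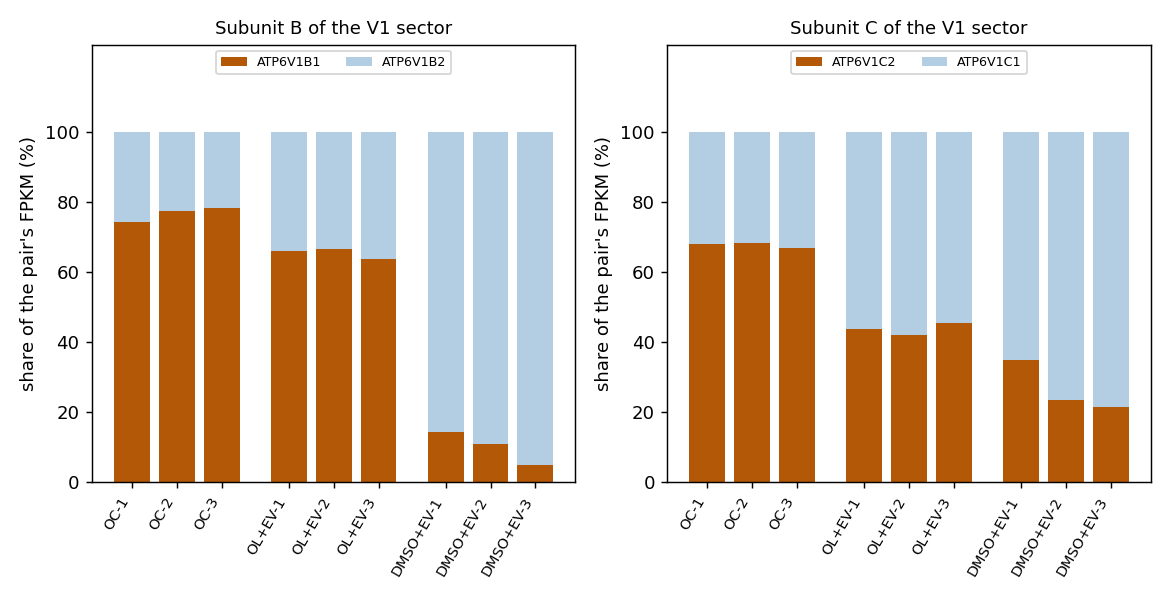
Share of each isoform in the summed FPKM of its pair (%), for subunit B (left) and subunit C (right), in every library of OC, OL+EV and DMSO+EV; the lower, darker part of each bar is ATP6V1B1 or ATP6V1C2. B1 makes up 74.3% to 78.3% in OC and 4.94% to 14.3% in DMSO+EV, and C2 67.0% to 68.4% in OC and 21.5% to 35.0% in DMSO+EV.

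The other V1 subunits moved less. ATP6V1G1, a stalk subunit, was at 67.0, 71.2 and 75.9 FPKM in OC, 47.7, 45.6 and 46.9 in OL+EV and 34.8, 38.9 and 43.9 in DMSO+EV, with no overlap of groups. It rose by 0.85 in OC against DMSO+EV (limma adjusted p = 4.71e-06) and was 0.60 higher in OC than in OL+EV (limma adjusted p = 0.000184). Its 0.25 in OL+EV against DMSO+EV sat at the threshold (limma adjusted p = 0.0464) and ended in 11 of 19 alternatives. ATP6V1E1, another stalk subunit, rose by 0.36 in OC against DMSO+EV (limma adjusted p = 0.00402), and by 0.25 in OL+EV (limma adjusted p = 0.0401), a call that ended in 10 of 19 alternatives. ATP6V1F, of the shaft, was at 77.7, 78.6 and 93.1 FPKM in OC, 128, 138 and 120 in OL+EV and 92.1, 93.7 and 88.9 in DMSO+EV. It was high in OL+EV alone among the groups, by 0.48 over DMSO+EV (limma adjusted p = 0.00128), with a log2 difference of -0.62 in OC against OL+EV (limma adjusted p = 0.000146). In OC against DMSO+EV it gave -0.14 and no call (limma adjusted p = 0.224), but passed with quantile normalization (0.0488) and without OC replicate 3 (0.0222). ATP6V1A, the catalytic subunit, ran from 7.52 to 8.19 FPKM in OC, 7.45 to 8.91 in OL+EV and 6.18 to 8.67 in DMSO+EV, and like ATP6V1D of the shaft and the regulator ATP6V1H it gave no call in any comparison. Without DMSO+EV replicate 3, ATP6V1A passed in OL+EV (limma adjusted p = 0.0269), and ATP6V1H passed as lower in OC than in OL+EV without OC replicate 3 (limma adjusted p = 0.0398) and with quantile normalization (0.0393). ATP6V1E2, known mainly from testis, lay at 1.70 FPKM or below throughout. Its log2 difference was -0.37 in OC against DMSO+EV and -0.35 in OC against OL+EV (limma adjusted p = 0.0160 and 0.0235), calls that ended in 4 of the 18 and 7 of the 17 alternatives that tested it. As ATP6V1E2 reached 1 FPKM in 0 OC libraries, the filter favoured a lower value in OC.

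In the V0 sector no change reached 1 on the log2 scale. The rotor ring genes ATP6V0C, at 127 to 167 FPKM in OC, 148 to 162 in OL+EV and 162 to 178 in DMSO+EV, and ATP6V0B, at 87.0 to 110.1, 73.8 to 84.0 and 77.0 to 93.2, gave no call. Without OC replicate 3, ATP6V0C passed as lower in OC than in DMSO+EV (-0.33, limma adjusted p = 0.00393) and than in OL+EV (-0.21, limma adjusted p = 0.0407). It also passed against DMSO+EV with quantile normalization (0.0187) and with equal totals without mitochondrial genes (0.0354), and ATP6V0B passed as higher in OC with those equal totals against DMSO+EV (0.0462) and OL+EV (0.0120). ATP6V0D1, the link of ring and shaft, rose by 0.48 in OC against DMSO+EV (limma adjusted p = 0.00380), at 48.5, 47.0 and 57.5 FPKM in OC, 48.7, 44.7 and 37.8 in OL+EV and 31.3, 39.6 and 38.6 in DMSO+EV. OL+EV did not pass (0.25, limma adjusted p = 0.101), but did with quantile normalization (0.0275), with equal totals without mitochondrial genes (0.0245) and without OL+EV replicate 3 (0.0428). ATP6V0A1, the highest of the ATP6V0A genes here though below the a3 gene TCIRG1, which the choice by symbol leaves out, was at 9.24, 8.33 and 8.26 FPKM in OC, 14.6, 12.4 and 12.2 in OL+EV and 10.8, 10.1 and 10.1 in DMSO+EV. OC was the lowest group and OL+EV the highest, with a log2 difference of -0.55 between them (limma adjusted p = 0.000249). OL+EV exceeded DMSO+EV by 0.31 (limma adjusted p = 0.0142), which ended under median-of-ratios rescaling (0.0549) and without OL+EV replicate 1 (0.0865). The value of -0.24 in OC against DMSO+EV (limma adjusted p = 0.0378) ended in 9 of 19 alternatives. ATP6V0E2, a small e subunit, was at 11.5, 10.3 and 12.6 FPKM in OC, 17.3, 17.7 and 15.2 in OL+EV and 14.3, 15 and 13.9 in DMSO+EV. OC was the lowest group, with log2 differences of -0.51 against OL+EV (limma adjusted p = 0.000506) and -0.31 against DMSO+EV (limma adjusted p = 0.0111, or 0.0651 without OC replicate 2). Its paralogue ATP6V0E1 was at 81.8, 77.2 and 103.7 FPKM in OC, 87.8, 97.0 and 83.04 in OL+EV and 70.7, 68.9 and 73.8 in DMSO+EV. Both drug groups lay above vehicle, by 0.28 in OC and 0.32 in OL+EV (limma adjusted p = 0.0414 and 0.0314). These ATP6V0E1 calls ended in 9 and 7 of 19 alternatives. Levels of ATP6V0A2, a Golgi isoform, stayed between 1.48 and 2.03 FPKM. ATP6V0A4, ATP6V0D2 and ATP6V1G2, known from kidney, osteoclasts and brain, stayed below 1 FPKM in every library and were not tested.

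Both accessory proteins rose in both drug groups. ATP6AP1, which guides assembly of V0, was at 132, 127 and 138 FPKM in OC, 109, 106 and 95.3 in OL+EV and 69.6, 82.9 and 84.4 in DMSO+EV, without overlap. The log2 fold change was 0.74 in OC (limma adjusted p = 2.46e-05) and 0.39 in OL+EV (limma adjusted p = 0.00634) against DMSO+EV, and 0.35 in OC against OL+EV (limma adjusted p = 0.00974), which ended without OL+EV replicate 3 (limma adjusted p = 0.0517). ATP6AP2, the prorenin receptor, was at 19.4, 20.0 and 22.4 FPKM in OC, 15.7, 16.4 and 14.1 in OL+EV and 11.3, 12.3 and 14.4 in DMSO+EV. OC lay above both other groups, and OL+EV overlapped vehicle. It was 0.66 higher in OC than in DMSO+EV (limma adjusted p = 7.64e-05) and 0.40 higher than in OL+EV (limma adjusted p = 0.00523). Its 0.27 in OL+EV against DMSO+EV (limma adjusted p = 0.0466) ended in 11 of 19 alternatives. By sector, V1 genes summed to 317 ± 25.3 FPKM in OC, 298 ± 12.5 in OL+EV and 229 ± 11.4 in DMSO+EV, and V0 genes to 402 ± 51.5, 402 ± 25.2 and 391 ± 20.2 (SD, n = 3). The V0 sum, like the sum over 23 pump genes, does not hold TCIRG1, which averaged 84.1 ± 3.75 FPKM in OC, 70.0 ± 0.329 in OL+EV and 45.6 ± 4.64 in DMSO+EV. Nor do these sums hold the pump partner RNASEK, at 162 ± 16.5, 214.5 ± 4.18 and 196 ± 6.51 FPKM in the same order of groups. RNASEK went the other way, with -0.28 in OC against DMSO+EV and -0.41 against OL+EV (limma adjusted p = 0.0225 and 0.00306).

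**Figure D5:**
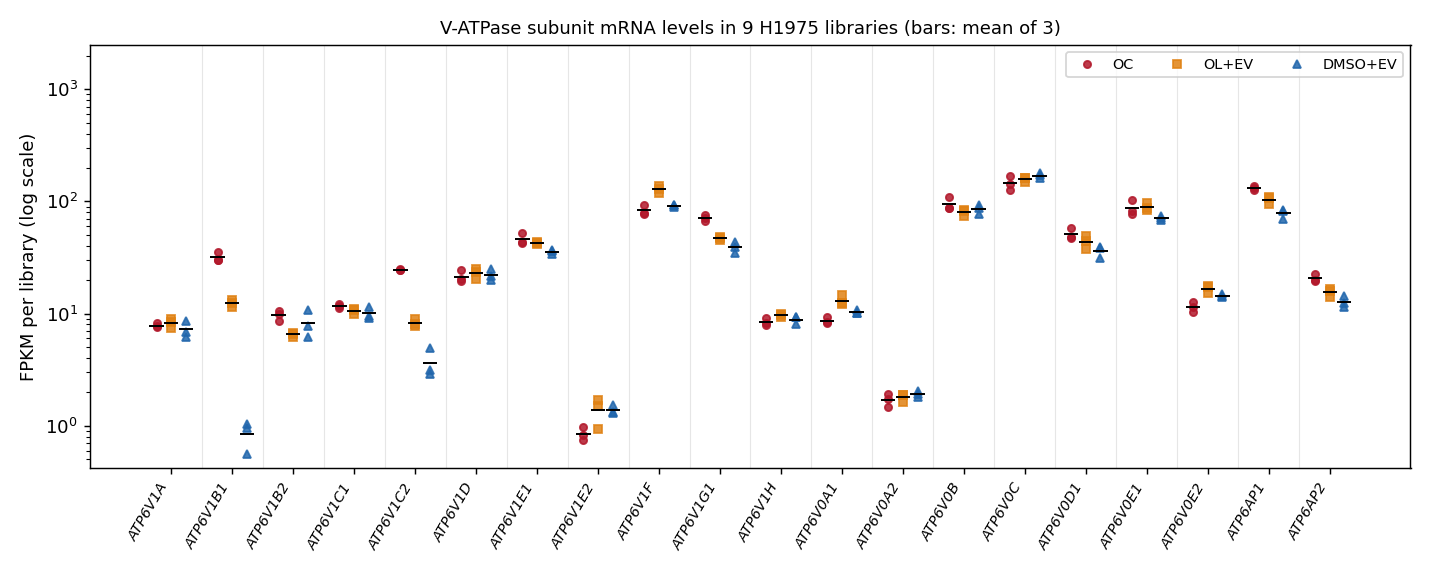
FPKM of 20 V-ATPase genes in each of 9 libraries on a log axis, with OC, OL+EV and DMSO+EV from left to right for each gene; black bars are means of 3. ATP6V1B1 and ATP6V1C2 are the genes whose groups stand farthest apart, at 29.8 to 35.7 and 24.4 to 24.8 FPKM in OC.

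Some members have near-identical copies or overlapping genes among which reads could be split. The pseudogene ATP6V1E1P1 was listed at up to 1.15 FPKM, and CTSL pseudogenes at up to 0.1002. The readthrough gene ATP6V1G2-DDX39B was at 0.323 to 0.354 FPKM in OC, 0.336 to 0.559 in OL+EV and 0.596 to 1.11 in DMSO+EV, above ATP6V1G2 itself in each library, so the level of ATP6V1G2 is uncertain. ATP6V0E2 has an antisense gene, listed at 0.246 FPKM at most.

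Promoter windows of 300 bases, mostly upstream of the gene start, were read for 16 pump genes and 9 cathepsins from RefSeq (GRCh38.p14), because many lysosomal genes carry an E-box bound by the transcription factor TFEB and its relatives. Of these, 4 pump genes (25%) and 3 cathepsins (33.3%) held CACGTG on either strand, against 8.77% of 27305 genes with such windows. The longer TCACGTGA, which contains CACGTG, was in 2 pump genes (12.5%) and 1 cathepsin (11.1%), against 1.18% of all genes. GAAA followed after 2 bases by another GAAA, a motif of interferon-response type, was in 0 of these 16 pump genes and 9 cathepsins and in 4.38% of all. Some members had no window, CTSS, CTSO, CTSK and CTSB among them, so none of these motifs was looked for there. The stretches with CACGTG are shown for members that moved and for ATP6V0B and ATP6V0E2, which did not rise in OC, with the motif in capitals, 5′ to 3′ on the gene's strand.
CTSA (chr20:45891268-45891334, plus strand): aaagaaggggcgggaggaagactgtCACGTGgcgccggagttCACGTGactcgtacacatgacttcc
CTSD (chr11:1763944-1763999, minus strand): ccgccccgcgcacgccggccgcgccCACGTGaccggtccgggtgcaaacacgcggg
CTSF (chr11:66568627-66568754, minus strand): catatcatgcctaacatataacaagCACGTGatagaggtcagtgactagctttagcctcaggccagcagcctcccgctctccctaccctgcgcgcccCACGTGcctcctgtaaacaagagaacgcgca
ATP6V1G1 (chr9:114587686-114587741, plus strand): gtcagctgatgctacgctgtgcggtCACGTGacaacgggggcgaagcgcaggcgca
ATP6V0D1 (chr16:67481186-67481241, minus strand): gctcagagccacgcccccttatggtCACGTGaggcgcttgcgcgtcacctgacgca
ATP6V0B (chr1:43974878-43974951, plus strand): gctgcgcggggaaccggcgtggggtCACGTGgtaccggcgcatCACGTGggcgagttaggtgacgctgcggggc
ATP6V0E2 (chr7:149872871-149872926, plus strand): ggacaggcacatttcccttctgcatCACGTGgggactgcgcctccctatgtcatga

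In CTSD, ATP6V1G1, ATP6V0D1 and the nearer copy in CTSF the motif begins between 47 and 59 bases before the gene start, and CTSA and ATP6V0B hold it at 2 places. The 3 cathepsins with the motif rose in OC and in OL+EV, ATP6V1G1 and ATP6V0D1 rose in OC, ATP6V0B gave no call and ATP6V0E2 was lower in OC. The motif was not among the letters of the windows of ATP6V1B1, ATP6V1C2, CTSC, CTSH or CTSL, which also rose in OC. These matches describe sequence and not binding.

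TFEB, the transcription factor best known for switching on lysosomal genes, was at 8.29, 8.95 and 10.5 FPKM in OC, 8.77, 9.06 and 8.25 in OL+EV and 3.55, 3.62 and 3.76 in DMSO+EV. Both drug groups lay above vehicle and overlapped each other, with log2 fold changes of 1.14 and 1.06 against DMSO+EV (limma adjusted p = 2.35e-07 and 1.13e-06) and 0.08 in OC against OL+EV (SE 0.10, limma adjusted p = 0.518). The counts of the gene lists that follow stand beside 33.1% of all genes tested higher and 35.8% lower in OC against DMSO+EV, and 29% higher and 23.5% lower in OL+EV against DMSO+EV. Of 13 tested MiT/TFE factors and controllers 6 rose and 1 fell in OC against DMSO+EV (median log2 fold change 0.13), and 4 rose and 0 fell in OL+EV (0.19), where the share that rose was near the 29% of all genes. RRAGC, a GTPase that recruits TFEB to lysosomes, rose by 1.31 in OC (limma adjusted p = 1.84e-07), and MITF, a relative of TFEB, by 0.62 (limma adjusted p = 0.000423).

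Of 7 other lysosomal proteases 5 rose and 0 fell in OC against DMSO+EV (median 1.36), beside 33.1% and 35.8% of all genes. In OL+EV 5 were higher and 1 lower (median 0.49), beside 29% and 23.5% of all genes, with 4 higher under median-of-ratios rescaling. SCPEP1, a serine carboxypeptidase, was at 97.6, 95.0 and 113 FPKM in OC, 18.5, 17.2 and 13.8 in OL+EV and 5.16, 6.93 and 7.73 in DMSO+EV. OC lay far above OL+EV, which lay above vehicle, with a log2 fold change of 3.77 in OC and 1.21 in OL+EV against DMSO+EV (limma adjusted p = 4.03e-11 and 8.57e-06). LGMN, the asparaginyl endopeptidase legumain, which processes several cathepsins, was at 79.8, 75.0 and 89.9 FPKM in OC, 9.05, 9.27 and 7.88 in OL+EV and 11.8, 12.8 and 13.6 in DMSO+EV. Like CTSC it was higher in OC and lower in OL+EV than in DMSO+EV, with log2 fold changes of 2.59 and -0.50 (limma adjusted p = 6.56e-11 and 0.000906). CPVL, a carboxypeptidase known from macrophages, rose by 1.63 in OC and by 0.29 in OL+EV (limma adjusted p = 1.43e-08 and 0.0364).

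Of 4 tested cathepsin inhibitors 3 rose and 0 fell in OC against DMSO+EV (median 0.48), and 2 rose in OL+EV (median 0.28), or 1 under median-of-ratios rescaling. All genes tested rose in 33.1% and 29% of cases in these comparisons, so the counts over 4 genes say little. The secreted cystatin C gene CST3 averaged 297 ± 46.3 FPKM in OC, 226 ± 34.2 in OL+EV and 168 ± 22.5 in DMSO+EV (SD, n = 3), up by 0.82 and 0.43 (limma adjusted p = 0.000251 and 0.0269). CST6, cystatin E/M, rose by 0.61 and 0.77 (limma adjusted p = 0.000814 and 0.000210). CSTB, the abundant cytosolic cystatin B, gave no call at 648 ± 65.3 FPKM in OC, 666.5 ± 44.8 in OL+EV and 603.5 ± 39.0 in DMSO+EV.

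Assembly factors and partners of the pump rose in 8 of 14 cases and fell in 2 in OC against DMSO+EV (median 0.33), beside 33.1% and 35.8% of all genes. In OL+EV 4 rose and 1 fell (median 0.10), where the share that rose was near the 29% of all genes. TCIRG1, the a3 subunit of V0, stood at 83.7, 80.5 and 88.0 FPKM in OC, 70.4, 69.8 and 69.8 in OL+EV and 50.4, 45.3 and 41.1 in DMSO+EV. That is above ATP6V0A1 per length in every library, and the groups did not overlap. It rose by 0.87 in OC and 0.61 in OL+EV (limma adjusted p = 2.34e-06 and 0.000120). OXR1 and NCOA7, whose TLDc domains bind V1, were higher in OC by 1.35 and 1.24 against DMSO+EV (limma adjusted p = 2.48e-07 and 3.57e-08) and by 1.19 and 1.27 against OL+EV. VMA21, a chaperone of V0 assembly, fell by 0.79 in OC and by 0.52 in OL+EV (limma adjusted p = 2.59e-06 and 0.000222), and ROGDI, of the complex that rejoins V1 and V0, rose by 0.50 and 0.91 (limma adjusted p = 0.000545 and 5.38e-06).

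Lysosomal channels and transporters rose in 6 of 10 cases in OC and fell in 0 (median 0.29), beside 33.1% and 35.8% of all genes. In OL+EV 4 rose and 1 fell (median 0.16), beside 29% and 23.5% of all genes. OSTM1, partner of the chloride transporter CLCN7, rose by 0.87 in OC (limma adjusted p = 7.63e-05), while the proton channel TMEM175 rose most in OL+EV, by 0.80 (limma adjusted p = 3.84e-05), as did CTNS, the cystine exporter, by 0.79 (limma adjusted p = 4.49e-05). Of 9 genes of mannose 6-phosphate tagging and sorting, which deliver cathepsins to lysosomes, 5 rose and 1 fell in either drug group against DMSO+EV (medians 0.28 and 0.26), beside 33.1% of all genes higher in OC and 29% in OL+EV. In OL+EV 1 rose under median-of-ratios rescaling. IGF2R, the large mannose 6-phosphate receptor, rose by 0.77 in OC (limma adjusted p = 0.000632), and GGA1, a sorting adaptor, fell by 0.54 (limma adjusted p = 5.07e-05).

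All 5 tested genes of MHC class II presentation, the pathway served by cathepsins S and F, rose in OC against DMSO+EV and were higher in OC than in OL+EV, beside 33.1% and 25.9% of all genes. CD74 and HLA-DRA, a class II chain, reached 1 FPKM in OC libraries alone and entered the test through that group, so their direction was fixed by the filter and the count is a description. In OL+EV against DMSO+EV 2 of the 5 were higher and 1 lower, beside 29% and 23.5% of all genes. The 2 were HLA-DMA, with means of 16.8 FPKM in OC, 6.95 in OL+EV and 2.92 in DMSO+EV, and HLA-DRB1, with 9.58, 2.46 and 1.27. IFI30, a lysosomal thiol reductase, was at 139.5, 135 and 172 FPKM in OC, 24.5, 25.4 and 24.6 in OL+EV and 30.9, 32.8 and 27.7 in DMSO+EV, with a log2 fold change of 2.24 in OC and -0.28 in OL+EV against DMSO+EV (limma adjusted p = 6.04e-10 and 0.0397). CD74, the invariant chain, was at 5.24, 3.49 and 5.24 FPKM in OC, was listed at 0 in each OL+EV library, and was at 0, 0.0885 and 0.188 in DMSO+EV. HLA-DRA was at 1.36, 1.59 and 2.06 FPKM in OC and was listed at 0 in all libraries of the other groups.

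Markers of other cells were low. The 7 leukocyte markers in the table, of 10 listed, summed to 9.76 to 11.02 FPKM in OC, 7.57 to 9.43 in OL+EV and 4.11 to 5.31 in DMSO+EV, led by CSF1R in each group, and none was at 0 in all libraries. CSF1R was 1.01 higher in OC and 0.88 higher in OL+EV than in DMSO+EV (limma adjusted p = 5.43e-06 and 3.82e-05). CD14, the other leukocyte marker tested, was at 2.11, 3.11 and 3.99 FPKM in OC, 2.14, 0.925 and 1.21 in OL+EV and 1.58, 1.27 and 1.96 in DMSO+EV. Its level was 0.63 higher in OC than in DMSO+EV and 0.75 higher than in OL+EV (limma adjusted p = 0.0153 and 0.00690). PTPRC, which marks all leukocytes, reached 0.0352 FPKM at most, and LYZ 0.111. The 2 osteoclast markers in the table, of 4, summed to 0.939 to 1.34 FPKM in OC, 0.312 to 0.472 in OL+EV and 0.120 to 0.151 in DMSO+EV. The 5 ionocyte or intercalated-cell markers, cells known for B1, summed to 0.137 to 0.323 FPKM in OC, 0.538 to 0.595 in OL+EV and 0.127 to 0.468 in DMSO+EV, all below the levels of ATP6V1B1 in the same libraries. Fibroblast markers (3 of 5 in the table) summed to 5.53 to 6.05, 3.20 to 3.54 and 3.35 to 3.70 FPKM, and endothelial markers (3 of 4) to 0.736 to 0.955, 0.135 to 0.207 and 3.55 to 4.08, in OC, OL+EV and DMSO+EV in that order. The part of these markers in the results was not tested.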

How the data were processed

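RNA-seq of 9 H1975 libraries was used of 21 samples in the series. The 12 circular RNA samples were not analysed here. The authors deposited 1 table of values per gene and library with no unit named. Fractional values and column totals of 338034 to 474156 point to FPKM, scaled to gene length and library size. Bowtie2 2.1.0, STAR, edgeR and hg38 are named in the submitters' processing notes, with no role. For the FPKM values deposited by the authors, the counting, annotation, strand setting and filters were not stated. The labels' shared extraction protocol names RNase R, which digests linear RNA, and 3 days of treatment, so it is not settled whether these libraries had it.

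Columns were matched to samples by name. The test was limma 3.58.1 (R 4.3.3) on log2(FPKM + 1), 1 fit over 3 groups with trend and robust variance, for genes with at least 1 FPKM in at least 3 libraries. It was checked on simulated data with normal noise in which few genes changed. The check therefore does not cover data in which many genes change, as here. A fold change on this scale understates changes of low genes. Ratios of means carry no pseudocount. Positions are RefSeq GRCh38.p14, in which all 37 symbols matched. The members and lists were chosen with earlier results of these data known. Of the 112 listed genes, 102 were in the table. Values per library are given for up to 6 called members of each family per comparison, and up to 3 called genes per list. Any other gene named was chosen after its values were seen. Alternatives covered scaling, filter, pseudocount, variance trend, samples fitted, a replicate block and each library left out. Figures: Python 3.11.15 with matplotlib 3.10.9.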

Additional observations from a re-analysis of the deposited data

How the results depend on the processing

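Of 96 member values tested, 56 were called, and 43 of these kept their call in every alternative that gave a value. No call changed its direction. Over 1813 alternative values, calls were lost in 74 and gained in 30. Of the 26 cathepsin calls 25 were kept, and that of CTSS in OL+EV against DMSO+EV was lost with a pseudocount of 5. Of the 30 pump calls 18 were kept. The counts of cathepsins were 9 and 1, 7 and 1, and 7 and 1 higher and lower when any library was left out. Requiring 5 FPKM gave 0 cathepsins lower in OC against DMSO+EV and 0 against OL+EV, because CTSK was not tested. The pump counts depended more on the processing. In OL+EV against DMSO+EV, pump genes higher were 4 under median-of-ratios rescaling, 5 with no filter and 5 with the replicate block, and pump genes lower were 1 with no filter (ATP6V0D2). Leaving out 1 library gave 4 to 9 higher and 0 to 1 lower. In OC against DMSO+EV, 0 to 4 pump genes were lower with 1 library left out, with 1 without DMSO+EV replicate 2 and 0 without OC replicate 2. In OC against OL+EV, 10 were higher under median-of-ratios rescaling, and 3 to 6 were lower with 1 library left out. The causes were not tested. In the labels, same-numbered libraries shared only a number. Their deviations from group means had correlations of -0.315 to 0.0358, against -0.155 to 0.329 for pairs with different numbers. With 3 libraries a group, these values cannot settle whether same-numbered libraries shared a culture or batch. The replicate block moved no other count by over 1.5 times. Read depth is unknown, so levels under 1 FPKM are imprecise to an unknown degree.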
